A study of Homo sapiens with 2 samples.

Results

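CHD4 occupancy in 501Mel cells was examined at *HBB*, *EEF1A1*, *PGK1* and *RPPH1*, where the deposited list of 60126 peaks held 12 peaks. The 12 peaks were those that overlapped the GENCODE record of a listed gene or the 2000 bp on either side of it. *EEF1A1* had 6, *PGK1* had 5 and *HBB* had 1, and 3 of the 4 listed genes had a record under their own name. No record on this build was named *RPPH1*, so that no peak was assigned to it.

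501Mel is an established human melanoma cell line, and here it was grown as a culture without any treatment named in the labels. Chromatin was fixed with 0.4% paraformaldehyde and sonicated, and the series holds 1 library of the CHD4 ChIP and 1 of the input from these cells. No replicate exists for either, so no spread can be given, and all values below describe a single peak list. The list gives for each peak a fold enrichment over background and the −log10 of the p and q computed by the peak caller, and it carries no read counts.

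CHD4 is the ATPase of the nucleosome remodelling and deacetylation complex NuRD, which moves nucleosomes and removes acetyl groups from histones at promoters and enhancers. *HBB* encodes the beta chain of adult haemoglobin and is a gene of red cell precursors, whereas *EEF1A1*, which encodes the factor that brings aminoacyl-tRNA to the ribosome, and *PGK1*, which encodes the glycolytic enzyme phosphoglycerate kinase, are transcribed in nearly all cells. *RPPH1* is the RNA of ribonuclease P, transcribed by RNA polymerase III. Human DNA from these loci is used in expression vectors: the promoters of *EEF1A1* (often with its first intron), *PGK1* and *RPPH1* (known as H1), and the end of a beta-globin gene as a transcription terminator.

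The edges of the 2 strongest peaks and of the *PGK1* peak that starts at an annotated transcription start are shown because they place the peaks against exons, introns and gene ends. Each is written 5′ to 3′ on the strand of the gene, from the hg19 sequence, and capitals mark the bases under the peak.
HBB, 5′-side edge, chr11:5246926-5247005, minus strand: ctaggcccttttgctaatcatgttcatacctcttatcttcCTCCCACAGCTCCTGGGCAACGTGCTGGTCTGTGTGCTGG
HBB, 3′-side edge, chr11:5246004-5246083, minus strand: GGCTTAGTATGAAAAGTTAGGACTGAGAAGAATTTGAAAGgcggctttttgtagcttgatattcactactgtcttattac
EEF1A1, 5′-side edge, chr6:74232108-74232187, minus strand: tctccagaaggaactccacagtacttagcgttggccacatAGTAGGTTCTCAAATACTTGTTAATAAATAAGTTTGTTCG
EEF1A1, 3′-side edge, chr6:74229642-74229721, minus strand: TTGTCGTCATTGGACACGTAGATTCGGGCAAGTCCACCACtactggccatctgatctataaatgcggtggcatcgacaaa
PGK1, edge at the alternative start, chrX:77320646-77320705, plus strand: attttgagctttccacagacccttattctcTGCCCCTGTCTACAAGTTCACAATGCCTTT
The *HBB* 5′-side edge runs from intron 2 into exon 3, with the splice acceptor AG inside the capitals. The *HBB* 3′-side edge lies beyond the gene, the *EEF1A1* 5′-side edge lies 1392 bp before the canonical start, and the *EEF1A1* 3′-side edge lies in the coding part of exon 2.

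The strongest peak of the whole list lay at the end of *HBB* and the next strongest at the start of *EEF1A1*. The *HBB* peak (chr11:5246044-5246965, 922 bp) stood at 16.66 in fold enrichment, 61.1 in −log10 p and 55.2 in −log10 q. The strongest *EEF1A1* peak (chr6:74229682-74232147, 2466 bp) stood at 14.00, 49.0 and 43.7 on the same measures. *HBB* and *EEF1A1* were chosen by these fold enrichments, so the ranks are a description. By fold enrichment, the gap to the rest of the list was wide. The third peak by fold enrichment, at *BRAF*, stood at 9.94, and the *EEF1A1* value was 1.41 times that value. By −log10 q the *HBB* peak ranked 3 and the *EEF1A1* peak ranked 4, behind 2 peaks at *NRAS*. On that measure there was no gap after *EEF1A1*, at 43.75, since a further *NRAS* peak stood at 43.72.

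The other 10 peaks were ordinary members of the list. Their fold enrichments ran from 2.68 to 3.90, against a median of 3.09 over the whole list, and the median of all 12 was 3.33. A −log10 q of at least 5 was reached by 2 of the 12 peaks, those at *HBB* and at the *EEF1A1* start, beside 2.23% of all peaks. A fold enrichment of at least 5 was reached by the same 2 peaks, beside 0.502% of all peaks. Both peaks were chosen by fold enrichment, so these counts follow from that choice and are a description.

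**Figure D1:**
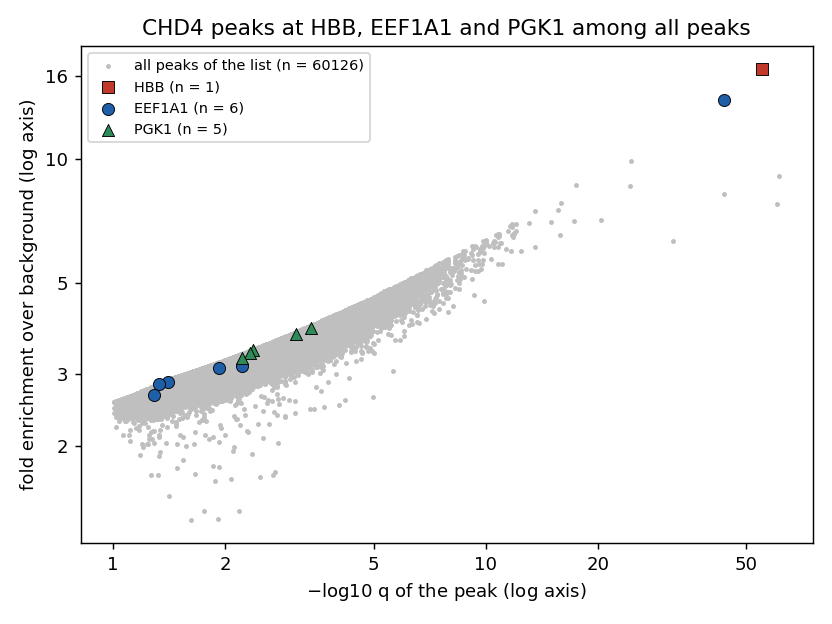
Fold enrichment over background (log axis) against −log10 q (log axis) for all 60126 peaks (grey), with the peaks of HBB (square), EEF1A1 (circles) and PGK1 (triangles); each point is 1 peak. The HBB peak at 16.66 and the strongest EEF1A1 peak at 14.00 stand above every other peak, the next being at 9.94, and the other 10 marked peaks lie between 2.68 and 3.90.

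Having a peak was in itself common. All 3 genes with a record had at least 1 peak in their window, and so did 60.2% of 20163 protein-coding genes. The records are longer than the transcripts usually meant by these names. The *PGK1* record begins 193509 bp before the canonical start, and the *EEF1A1* record extends 26442 bp past the canonical 3′ end and 4555 bp before the canonical start. With canonical transcripts and the same 2000 bp margins, *HBB* kept 1 peak, *EEF1A1* had 3 and *PGK1* had none, and 58.4% of 19881 protein-coding canonical transcripts had at least 1.

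*HBB* (ENSG00000244734) lies on the minus strand of chromosome 11, its canonical transcript running from 5248301 down to 5246694 in 3 exons. The peak covered the last exon and the DNA behind it and did not reach the start of the gene. It took in all 263 bp of exon 3, of which 126 bp are coding and 137 bp are 3′ untranslated, together with 9 of the 850 bp of intron 2. The remaining 650 bp lay beyond the 3′ end of the gene, and 648 bp of them fell in an unverified record, ENSG00000285498, on the same strand. The annotated start of that record, at 5246691, was under the peak. Neither exon 1 nor exon 2 was under the peak, whose nearer edge stood 1336 bp from the canonical start.

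The edge of the *HBB* peak inside the gene stood 9 bp from the border of intron 2 and exon 3. Of the 12 peaks, 3 overlapped a canonical exon, and this peak alone had an edge within 50 bp of an exon border, as did 29.8% of the 6392 peaks that overlapped a protein-coding canonical exon. At a limit of 10 bp it was again 1 of 3, beside 7.17% of those peaks. Both counts rest on this 1 peak, which was known from earlier results, and are a description. Reads were extended to 151 bp for the peak call, a length well above 9 bp. The other edge of the *HBB* peak was 650 bp from the nearest canonical exon border, behind the gene.

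Exon 3 carries the polyadenylation signal of *HBB*, and the signal lay inside the peak. It is shown from the AATAAA, in capitals, to the last base of the transcript, with 21 bases between them.
HBB, end of exon 3, chr11:5246694-5246720, minus strand: AATAAAaaacatttattttcattgcaa
The letters AATAAA were found 2 times in the whole peak, counting both strands, and 67.6% of the 11576 peaks with a length within 25% of it held them at least once. CCAAT was found 2 times, and 69.3% of those peaks held it. AGATAA, letters that the GATA factors of red cells can bind, was not found in the 922 bp and was held by 43.6% of peaks of like length. TATAAA (47.9%) and the octamer ATTTGCAT (5.55%) were not found either, and neither was GGGCGG (21.9%).

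A peak at the end of a protein-coding gene and not at its start was uncommon. *HBB* was 1 of 635 of 19881 protein-coding canonical transcripts, or 3.19%, whose last base was under a peak. The last base of the canonical transcript was under a peak and the start was not in 490 of 19881 transcripts, or 2.46%. The last exon was wholly under 1 peak in 157 of 18805 transcripts of 2 or more exons, or 0.835%. Over the 530 peaks that covered a last base and no start, the median fold enrichment was 3.22 and the highest after *HBB* was 5.45. The *HBB* value was 3.06 times the next, a description only, since *HBB* was chosen by its fold enrichment.

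**Figure D2:**
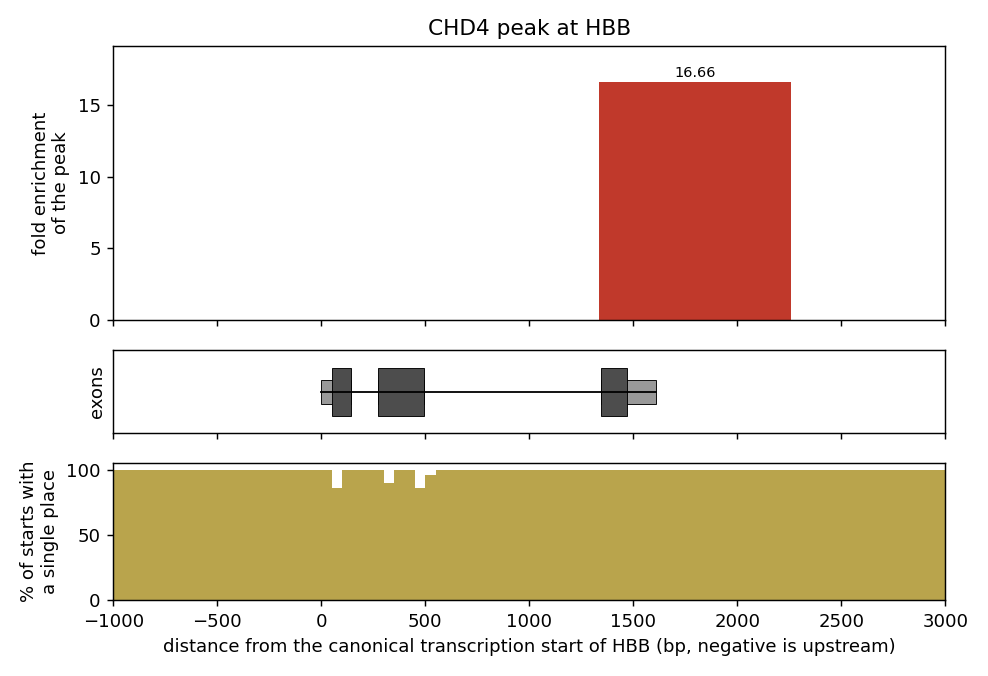
The HBB peak by distance from the canonical transcription start in bp (negative is upstream): the top panel gives the peak's extent and its fold enrichment, the middle panel the exons (tall and dark, coding; low and grey, untranslated), and the bottom panel the percent of 50-base starts, in bins of 50 bp, that have a single place in the genome. The peak runs from 1336 to 2257 bp after the start, over exon 3 and the DNA behind it.

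The surrounding globin cluster was nearly empty. A single other peak lay within 100 kb of the *HBB* peak, 41865 bp upstream of it (chr11:5288830-5289223), and reached 2.70 in fold enrichment and 1.43 in −log10 q. The median distance to the next peak was 3388 bp over the list, and 92.2% of peaks had a nearer neighbour than the *HBB* peak had. Over the 208 other peaks within 5 Mb the highest fold enrichment was 5.30. Among 11577 peaks of like length, within 25%, the highest after *HBB* was 8.63.

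*EEF1A1* (ENSG00000156508) lies on the minus strand of chromosome 6, its canonical transcript running from 74230755 down to 74225473 in 8 exons. The strongest of its peaks began 1392 bp before the start and ended 1073 bp after it. It covered all 33 bp of exon 1, all 943 bp of intron 1 and 98 of the 174 bp of exon 2. Of the exon bases under the peak, 68 are coding and 63 are 5′ untranslated. Of the 23 annotated *EEF1A1* transcripts, 17 start under it.

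The downstream edge of this peak stood 76 bp short of the border of exon 2 and intron 2, inside the coding sequence. Intron 2, of 366 bp, was free of any peak. No peak lay in the 3924 bp between the start-site peak and the next one at the 3′ end of the gene, which left exons 3 to 7 uncovered.

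The peak was rich in G and C, at 54.6%, and 86.1% of all peaks were lower, whereas the *HBB* peak, at 43.8%, matched the list median of 43.8%. GGGCGG, the core letters of a GC box bound by Sp1-type factors, was found 8 times in the *EEF1A1* peak on both strands. Of these, 4 lay upstream of the start and 4 in intron 1. Of the 4682 peaks of like length, within 25%, 33.3% held GGGCGG at least once, as did 61.4% of 19881 protein-coding promoters of 300 bases. The stretch of intron 1 with its 4 matches, on either strand in capitals, lies from 398 to 680 bp after the start.
EEF1A1, part of intron 1, chr6:74230075-74230357, minus strand: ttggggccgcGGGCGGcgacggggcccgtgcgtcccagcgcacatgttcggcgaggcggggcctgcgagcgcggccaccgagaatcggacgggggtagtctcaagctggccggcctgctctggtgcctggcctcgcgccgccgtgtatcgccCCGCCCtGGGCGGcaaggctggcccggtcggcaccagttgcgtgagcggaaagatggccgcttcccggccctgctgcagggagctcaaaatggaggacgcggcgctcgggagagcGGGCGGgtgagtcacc
TATAAA was not found in the peak, and it was found in 79.1% of peaks of like length. AATAAA and CCAAT were each found 2 times, and they were held by 92.5% and 94.8% of peaks of like length.

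Start sites under a peak were more common than gene ends. *EEF1A1* was chosen by the fold enrichment of its peak, so the height of that peak among start-site peaks is a description. The start of the canonical transcript was under a peak in 2453 of 19881 transcripts, or 12.3%. The whole of the first intron was under 1 peak in 1.33% of 18784 transcripts and in 4.84% of the 4690 whose first intron is at most 1000 bp long, as that of *EEF1A1* is. Over the 2222 peaks that covered a canonical start, the median fold enrichment was 3.24 and the highest after *EEF1A1* was 5.94, so that the *EEF1A1* value was 2.36 times the next. The peak was also long, since 93.2% of peaks were shorter. Among the 4059 peaks at least as long, the highest fold enrichment after it was 6.62.

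**Figure D3:**
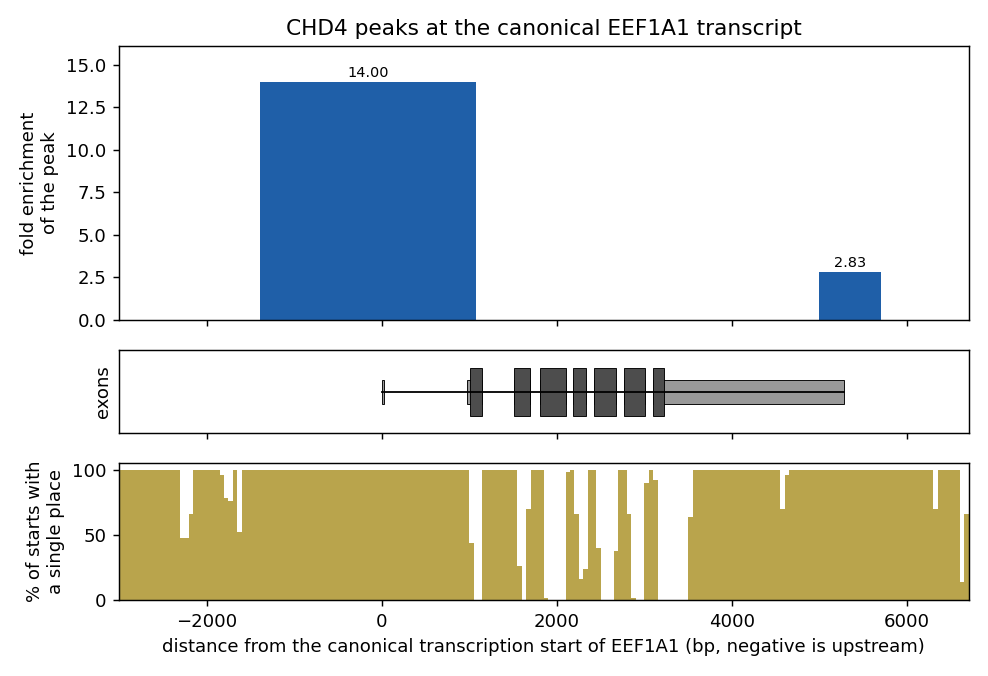
The EEF1A1 peaks near the canonical transcript by distance from its start in bp (negative is upstream), with the panels of peaks and fold enrichment, of exons (tall and dark, coding; low and grey, untranslated) and of the percent of 50-base starts in bins of 50 bp with a single place in the genome. The peak with a fold enrichment of 14.00 covers the promoter, exon 1, intron 1 and part of exon 2. A peak of 2.83 covers the 3′ end. The coding exons wholly between these peaks are uncovered and hold few starts with a single place.

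The other *EEF1A1* peaks were weak. A peak at the 3′ end (chr6:74225055-74225757) had a fold enrichment of 2.83 and covered 285 of the 2185 bp of exon 8 and 418 bp beyond the gene. Farther downstream, peaks at chr6:74222905-74223993 and chr6:74221314-74221767 had fold enrichments of 3.11 and 2.87, and lie within the *EEF1A1* record only because of its long 3′ extension. Their centres stood 7306 and 9215 bp after the canonical start.

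Upstream, peaks at chr6:74234048-74235017 and chr6:74235784-74236063 had fold enrichments of 3.14 and 2.68 and −log10 q of 2.21 and 1.29. Both lay in the lncRNA gene *EEF1A1-AS1* on the opposite strand, with centres 3777 and 5168 bp before the canonical start. The second of them lay outside the record, 474 bp before its most upstream start, and had a lower fold enrichment than all but 9.28% of peaks. Within 100 kb of the start-site peak there were 17 other peaks, with a median fold enrichment of 3.11 and a highest of 4.06, so that the neighbourhood was well filled and low.

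*PGK1* (ENSG00000102144) lies on the plus strand of chromosome X, its canonical transcript running from 77359745 to 77384792 in 11 exons. No peak covered its canonical promoter or any part of its canonical transcript, and the nearest peak stood 38505 bp before the start. The list thus holds no peak at the *PGK1* promoter in the sense used for vectors. The canonical promoter is shown with GGGCGG on either strand, present 3 times, and CCAAT, present 1 time and held by 36.0% of protein-coding promoters of 300 bases, in capitals.
PGK1, canonical promoter, chrX:77359495-77359744, plus strand: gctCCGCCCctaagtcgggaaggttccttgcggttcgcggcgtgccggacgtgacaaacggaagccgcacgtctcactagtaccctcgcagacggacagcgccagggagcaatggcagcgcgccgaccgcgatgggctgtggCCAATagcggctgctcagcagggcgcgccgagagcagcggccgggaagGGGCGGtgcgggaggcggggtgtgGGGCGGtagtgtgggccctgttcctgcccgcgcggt
Every 50-base start in exon 1 and intron 1 of *PGK1* had a single place in the genome.

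Of the 5 *PGK1* peaks, 4 lay in the 5′ extension of the record, which runs over *ATP7A*, the gene of a copper transporter, and the strongest lay in the margin before the record. The strongest (chrX:77164891-77165612) stood at 3.90 in fold enrichment and 3.40 in −log10 q, and 92.8% of peaks were lower. It stood 624 bp before the most upstream *PGK1* start and overlapped no gene record. Peaks at chrX:77166614-77166764 and chrX:77280079-77280412, with 3.43 and 3.37, overlapped *ATP7A* as well as the *PGK1* record. The former also overlapped the pseudogene *C4orf46P2*.

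The *PGK1* peak nearest to the canonical start (chrX:77320676-77321240) stood at 3.76 in fold enrichment and 3.09 in −log10 q. It began 9 bp before an alternative *PGK1* start at 77320685, and 2 of the 6 annotated transcripts start under it. Its neighbour at chrX:77319506-77319656 had 3.28 and ended 1029 bp before that start. Both this neighbour and the *ATP7A* peak next to the record's start were 151 bp long, the shortest length in the list, which 3.06% of peaks had.

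**Figure D4:**
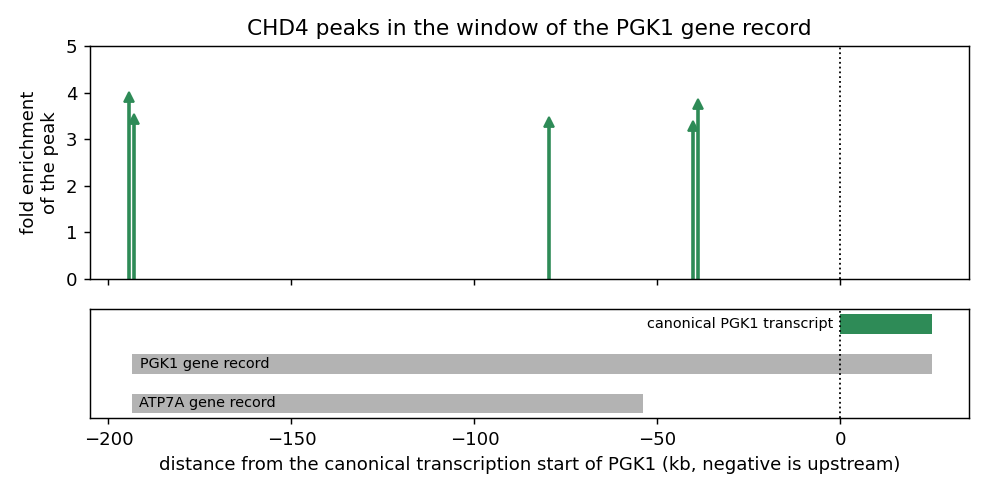
The 5 PGK1 peaks by distance from the canonical PGK1 start in kb (negative is upstream), with fold enrichment as height in the top panel and the gene records of ATP7A and PGK1 and the canonical PGK1 transcript in the lower panel; the dotted line is the canonical start. All 5 lie upstream, with fold enrichments from 3.28 to 3.90, and none lies at the canonical transcript.

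*RPPH1* could be looked at only through its neighbour. In the RefSeq gene order, used for names alone, *RPPH1* stands next to *PARP2*, which encodes a poly(ADP-ribose) polymerase of the DNA-damage response. On hg19, *PARP2* (chromosome 14, 20811774 to 20826063, plus strand) and the lncRNA record ENSG00000259001 (20811207 to 20811844, minus strand) each had 1 peak in their windows, and it was the same peak. That peak (chr14:20810585-20810761, 177 bp) stood at 4.15 in fold enrichment and 3.95 in −log10 q, and 96.2% of peaks had a lower fold enrichment. It lay 445 bp from the lncRNA record and 1012 bp from *PARP2* and was not counted among the 12.

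Where a 50-base read can be placed bears on where a peak can be called, because the authors kept only reads with a single best place. All 922 starts in the *HBB* peak had a single exact place in the genome, as had all 500 on each side of it. What set the edge at exon 3 was not tested. In the strongest *EEF1A1* peak 97.9% of 2466 starts had a single place, with 90.2% of the 500 upstream and 82.6% of the 500 downstream. *EEF1A1* intron 1 reached 100% of 943 starts and intron 2 100% of 366. Exon 2, in which the peak ended, reached 26.4% of 174, and exons 3 to 7 ran from 15.8% to 43.3%. The part of these low shares in the place of the *EEF1A1* edge, and in the absence of peaks over the later exons, was not tested.

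A background level under the peaks was estimated from the values of the list itself. The level at which a fold enrichment has the Poisson p that the peak caller gave was 2.83 for the *HBB* peak and 2.96 for the strongest *EEF1A1* peak, in units of overlapping extended reads, and the median over the list was 2.88. Relative to the median of peaks within 5 Mb, the level was 1.05 for *HBB* and 0.963 for *EEF1A1*. The ChIP levels that follow from fold enrichment and background were 62.7 and 54.4, beside a list median of 11.4, and they restate the fold enrichments by which both genes were chosen. The background levels of both peaks were near the list median, but levels in the list lay close together at the low end. The lowest in the list was 2.47, and the central 95% of peaks within 5 Mb of *HBB* ran from 2.48 to 3.51. The sources used here do not say that the input library was the control of the peak call, so these background levels cannot be read as levels of the input.

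*HBB* and *EEF1A1* were chosen by fold enrichment, so no related gene could stand higher, and the values of related genes are a description. Of 9 other globin genes, 6 had a peak in their window, beside 60.2% of protein-coding genes, and the highest fold enrichment was 3.81, at the embryonic alpha-type gene *HBZ*. *HBD*, *HBG1* and *HBA2* had none. *HBG2* and *HBE1*, whose records are long, had as strongest peak the same one, at chr11:5470737-5471320. It lay 194726 bp before the canonical start of *HBG2* and 179562 bp before that of *HBE1*. *HBA1* and *HBQ1* also shared a peak, with a −log10 q of 1.39. Of 6 other elongation factor genes 4 had a peak, the highest being 3.65 at *EEF2*, which encodes the translocation factor, and *EEF1A2*, the near paralog of *EEF1A1*, had 2.99. *PGK2*, the testis paralog of *PGK1*, had none.

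Of 10 genes for proteins of ribonuclease P, 7 had a peak, beside 60.2% of protein-coding genes, and the highest fold enrichment was 4.19 at *RPP14*. Of 11 small RNA genes with an upstream RNA polymerase III promoter of the kind that *RPPH1* has, 11 had a peak, beside 13.1% of 3948 small RNA records, a set that also holds many copies of such genes. The highest fold enrichment was 4.52 at *RNY4*, and the peaks of *RNY4*, *RNY1*, *RMRP* and *RNU6-1* covered the start itself. *RNY1* and *RNY3* shared a peak, as did *RNU6-7* and *RNU6-8*.

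Of 9 other human genes that supply vector elements, 7 had a peak, beside 60.2% of protein-coding genes and 13.1% of small RNA records, since the list holds both kinds. The highest was at *GH1*, the growth hormone gene, whose end is used as a terminator, at 6.96 in fold enrichment and 11.8 in −log10 q. That peak (chr17:61996794-61996965, 172 bp) lay 595 bp before the start of the gene and not at its end. *FTL*, which encodes ferritin light chain, had a peak of 5.65 (171 bp) that lay 1590 bp before its start. The 5 others with a peak ran from 3.26 at *GFAP* to 4.34 at *RN7SK*, with *FTH1* at 3.89 and *ACTB* at 3.97. The peak of *FTH1* covered its start, whereas that of *ACTB* lay 31346 bp before the canonical start and that of *GFAP* 14200 bp after it. *SERPINA1* and *SYN1* had none.

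**Figure D5:**
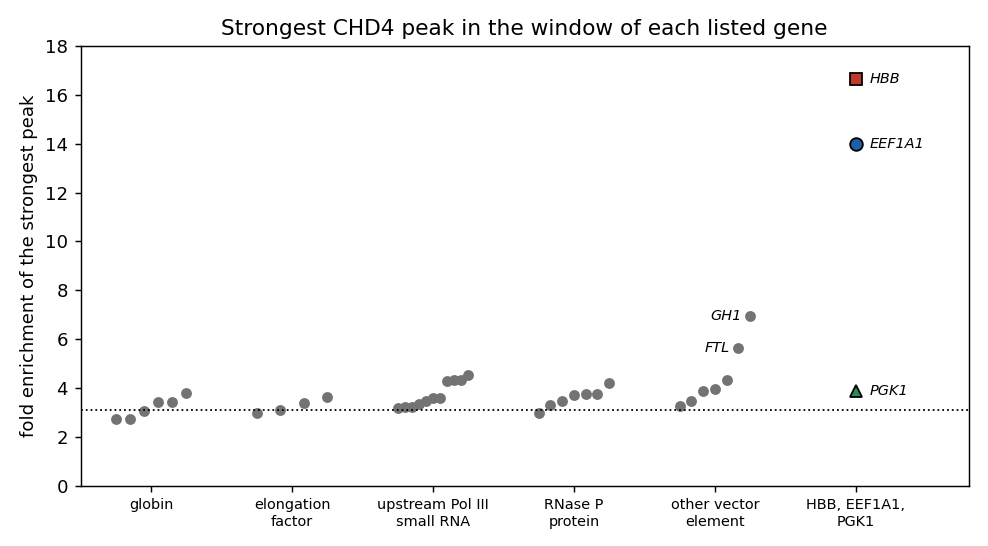
Fold enrichment of the strongest peak in the window of each listed gene that had a peak (grey points, 1 point per gene, in 5 lists) and of HBB, EEF1A1 and PGK1 (coloured); the dotted line is the median of the whole list, 3.09. No other listed gene passes the 6.96 of GH1.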

How the data were processed

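CHD4 ChIP and input chromatin of 501Mel cells were sequenced by the authors as single reads of 50 bases. Their submission's processing notes name bcl2fastq 2.17.1.14, Bowtie 1.0.0, MACS2 2.1.1.20160309 and hg19. Reads with more than 1 best place were discarded, which removes signal from repeated DNA, and reads were extended to 151 bp for broad peak calling. The 1 ChIP and 1 input library were not pooled. The labels and the methods name different library kits. The deposited list gives a score, which is 10 times the −log10 q without its decimals in nearly every line, the authors' fold enrichment (a ratio over local background), and the authors' −log10 p and −log10 q. It carries no read counts, so depth and counting error are unknown, and no test across samples was possible.

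Positions were counted from 1. Genes were those of GENCODE release 44 lifted to GRCh37, bases those of the same build, and 1 shared base counted as overlap. Exons are those of the transcript marked canonical. The members and the gene lists were chosen with earlier results of these data known. Values are named for the 4 listed genes, for genes of fixed lists of globins, elongation factors, phosphoglycerate kinase, small RNAs, ribonuclease P proteins and vector elements (1 gene of the last list is not reported here), for genes overlapping a member peak or beside *RPPH1*, and for the nearest genes of the 10 strongest peaks. Exact 50-base matches on both strands were counted over all chromosomes. The background level was found from fold enrichment, with a pseudocount of 1, and the Poisson p; it is approximate, since the list gives region-wide values and not the caller's formula. On 1000 simulated regions the median of the estimate over the simulated level was 1.01. Those regions had an even expected signal along their length, and the fold enrichments set for them stopped below that of the *HBB* peak. Peaks of uneven signal were not simulated. Alternatives covered stricter q, other windows, merged peaks, other rankings, other edge limits, other read lengths and flanks, and no pseudocount; canonical transcripts with 2000 bp margins were added after seeing the data. Software was samtools 1.23.1 and, under Python 3.11.15, pysam 0.24.0, scipy 1.17.1, pandas 2.3.3, matplotlib 3.10.9 and numpy 2.4.6.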

Additional observations from a re-analysis of the deposited data

How the results depend on the processing

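Of 47 values recomputed under alternatives, 23 kept within their limits and 24 moved. The count of 12 peaks was 8 at −log10 q 2 or more and 2 at 5 or more. It was 4 with canonical transcripts and 2000 bp margins, an alternative added after seeing the data. The share of protein-coding genes with a peak, 60.2%, was 44.9% at −log10 q 2 or more, 4.98% at 5 or more, 50.8% with no margin, 64.2% with 5000 bp, 33.0% over all annotated genes and 58.4% for canonical transcripts. The percent of peaks lower than the *HBB* peak went from 99.998 to 99.965 on its chromosome. For *EEF1A1* it went from 99.997 to 99.9787 on its chromosome, 99.9786 at like length and 99.983 near transcription starts. In these 4 cases fewer peaks were compared, and no peak but that at *HBB* exceeded the one at *EEF1A1*. For *PGK1* it went from 92.8 to 91.3 on its chromosome, 95.1 at like length, 88.4 by −log10 q and 89.7 near starts. The share of peaks with an edge at an exon border, 29.8%, was 7.17% at 10 bp, 47.7% at 100 bp, 39.2% over exons of any transcript and 32.0% at −log10 q 5 or more. The count of *HBB*, *EEF1A1* and *PGK1* peaks with such an edge rose from 1 to 2 at 100 bp and to 2 over any transcript, there of 5 peaks. Single-place starts beside the strongest *EEF1A1* peak went from 82.6% to 69.6% in the nearer 250 bp downstream, and from 90.2% to 76.4% upstream for 40 bases. The ranking by −log10 q is another measure over the same peaks. The limits of 10 and 100 bp change the allowed distance over the same peaks and borders. A match of 40 bases changes the length at the same starts. Each other setting named here is by construction another set of peaks, genes, borders or starts. The cause was not tested for the *PGK1* value by −log10 q. No paired analysis was possible because the series has 1 library of each kind. Without replicates or read counts, neither the spread nor the counting error of a fold enrichment can be given.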
